A study of Mus musculus with 6 samples.

Results

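Smooth muscle contractile genes were measured by poly-A RNA-seq in cultures labelled as mouse aortic endothelial cells, from 3 female and 3 male samples. The set holds 9 of the 54532 genes in the table and was chosen by gene name. The mature markers Myh11, Lmod1 and Myocd were kept apart from Acta2, Tagln, Cnn1, Myl9, Smtn and Des, which the choice of members treats as also high in myofibroblasts. All 6 samples carry the labels MAEC, wild type and no treatment, and were grown with serum, heparin and endothelial growth factors. The sexes were compared to ask how endothelial cells differ between them. The labels do not give the age of the mice. They also do not say whether the 3 samples of a sex are from different mice or different dishes, and the tests below therefore rest on a spread that could be purely technical.

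In a contractile smooth muscle cell, filaments of smooth muscle alpha-actin slide on filaments of smooth muscle myosin when the myosin light chain is phosphorylated. The genes of this apparatus share a control element, the CArG box, which binds serum response factor (SRF). SRF is driven at these genes by the coactivator myocardin, which is largely confined to muscle, or by the myocardin-related factors, which many cells have and which respond to the state of the actin cytoskeleton. Smooth muscle alpha-actin and transgelin are also made by myofibroblasts and by cultured mesenchymal cells, while smooth muscle myosin heavy chain is the stricter mark of a mature smooth muscle cell.

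In these cultures most contractile genes were at very low levels in both sexes, and the non-muscle relatives of actin, myosin, calponin and transgelin were abundant instead. Smtn made up 84.9% of all counts over the 9 genes. Of the 5 members tested, Acta2 alone passed the test, which 18.3% of all genes tested did, and it was 6.23-fold lower in female than in male cultures. The mature markers Myh11 and Myocd did not exceed 5 counts in any library of either sex.

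The sequence before the start site is shown for Acta2, the member that differed between the sexes, and for Myl9, which holds the same kind of element and was not called. Sequences are from RefSeq on GRCm38.p6, read 5′ to 3′ along each gene's own strand, and end before the start that RefSeq or the deposited table gives, whichever lies further upstream. Acta2 is on the minus strand, at chr19:34255374-34255533, and Myl9 on the plus strand, at chr2:156775260-156775419. Capitals mark matches to the CArG box, to a CArG-like element and to the MCAT motif.
Acta2: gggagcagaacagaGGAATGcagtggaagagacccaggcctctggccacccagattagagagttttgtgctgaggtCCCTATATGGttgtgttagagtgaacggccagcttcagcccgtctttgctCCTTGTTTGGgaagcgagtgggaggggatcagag
Myl9: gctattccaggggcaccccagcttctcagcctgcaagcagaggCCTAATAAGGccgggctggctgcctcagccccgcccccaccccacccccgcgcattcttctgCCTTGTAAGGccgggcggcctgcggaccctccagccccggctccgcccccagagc

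A CArG box was taken as CC and GG around a core of 6 bases that are all A or T, and a CArG-like element as the same with exactly 1 C or G in the core. Both patterns are their own reverse complement, so a search of either strand finds the same sites, and no site counts as both. MCAT, the motif bound by TEAD factors, was searched as CATTCC and GGAATG. Within 250 bases before the start, 1.47% of 32851 RefSeq promoters held a CArG box, 7.24% a CArG-like element and 12.64% an MCAT motif. RefSeq promoters were matched for 6 members, namely Acta2, Myl9, Lmod1, Smtn, Cnn1 and Des, and not for Myh11, Tagln and Myocd.

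Acta2 held 2 CArG-like elements, starting 84 and 34 bases before the RefSeq start. The gene's start in the table lies 37 bases further downstream, so that the same elements start 121 and 71 bases before it. An MCAT motif started 146 bases before the RefSeq start of Acta2. Myl9 held 1 CArG box, starting 161 bases before its RefSeq start, and 1 CArG-like element, at 99 bases. Lmod1 and Smtn each held an MCAT motif only, at 130 and 222 bases. The RefSeq start of Smtn lies 1320 bases inside the gene as the table spans it, so that its motif falls within the gene there. No match to these motifs was found in the windows of Cnn1 and Des. A match is a run of letters and not a bound site, and no binding was measured here.

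**Figure D1:**
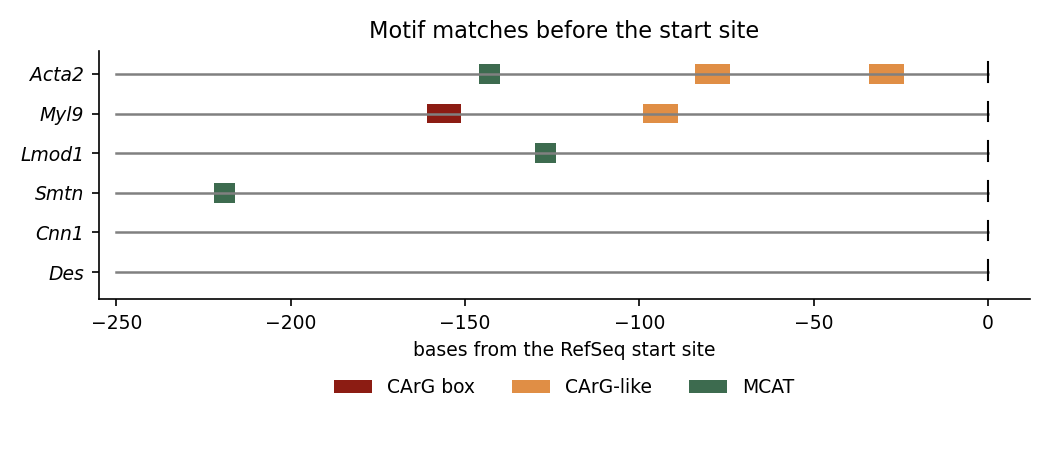
Motif matches in the 250 bases before the RefSeq start of the 6 contractile genes with a promoter sequence, drawn by distance from the start in bases. Acta2 has 2 CArG-like elements and 1 MCAT motif, Myl9 1 CArG box and 1 CArG-like element, and Lmod1 and Smtn 1 MCAT motif each.

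The libraries held 17410996 to 22993574 counts. A count of 0 in a library allows 0.128 to 0.171 CPM (counts relative to library totals, which were scaled by edgeR's TMM method), taking 3 counts as the floor, for counting error only. Male replicate 3 stood apart, with correlations of log2 CPM of 0.958 and 0.966 with the other male libraries, against at least 0.976 among female libraries. The labelled cell type was not borne out by its defining markers, since all 6 libraries had under 1 CPM of 14 of 20 endothelial genes and Cdh5, Cldn5, Robo4, Tal1 and Tie1 had 0 counts in all of them. The summed level of the 20 genes was 262 to 277 CPM in female and 434 to 484 in male libraries, mostly from Eng, Flt1, Cd34 and, in male libraries, Plvap. The summed level of 16 fibroblast markers was 8808 to 9402 CPM in female and 8871 to 9321 in male libraries, but single markers differed widely. Of the 15 tested, 5 were higher and 5 lower in female (66.7% called, against 18.3% of all genes tested). Here and below, levels are mean ± SD (n = 3), and differences between the sexes are log2 fold changes of female over male ± SE. The proteoglycan genes Lum (413 ± 12.7 against 14.3 ± 2.48 CPM in male, log2 fold change 4.85 ± 0.15, edgeR adjusted p = 1.85e-07) and Dcn (1192 ± 33.0 against 332 ± 22.7 CPM, log2 fold change 1.84 ± 0.11, edgeR adjusted p = 3.21e-06) were higher. Tcf21, a transcription factor of fibroblast precursors, was lower, with 0 counts in each female library and 105 to 139 in the male libraries (edgeR adjusted p = 4.15e-05). Tcf21 passed the filter on low counts only through the male libraries, so its call cannot serve as further support for a difference. The part of these endothelial and fibroblast markers in the Acta2 difference was not tested.

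FPKM values (here CPM divided by the gene length in the table, in kilobases) allow levels to be compared between genes. Over all 6 libraries Smtn was highest, with a mean of 27.5 FPKM, above 89.4% of the 16125 protein-coding genes with a count. Acta2 followed at 6.61 FPKM (62.9% of those genes were lower) and Myl9 at 4.36 FPKM (54.1%). Lmod1 stood at 0.893 FPKM (33.0%), Tagln at 0.288 (25.5%), Des at 0.120 (20.3%), Cnn1 at 0.0429 (14.3%), Myh11 at 0.0187 (9.46%) and Myocd at 0.00443 (2.93%).

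The order was not the same in the sexes. Every library of Smtn lay above every library of any other member, at 25.1 to 32.9 FPKM. In female cultures Myl9 (3.64 ± 0.979 FPKM, SD, n = 3) was above Acta2 (1.81 ± 0.421) in each library, and in male cultures Acta2 (11.4 ± 3.37) was above Myl9 (5.08 ± 1.33) in each library. Lmod1 ranged from 0.674 to 1.02 FPKM and did not overlap Myl9 or Tagln. The Tagln level may be too low, since 62.4% of its exonic bases are shared with an antisense gene. Its place below Lmod1 is therefore uncertain. The ranges of Tagln, Des, Cnn1, Myh11 and Myocd overlapped with that of the next member down, so their order among themselves was not resolved by these libraries.

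**Figure D2:**
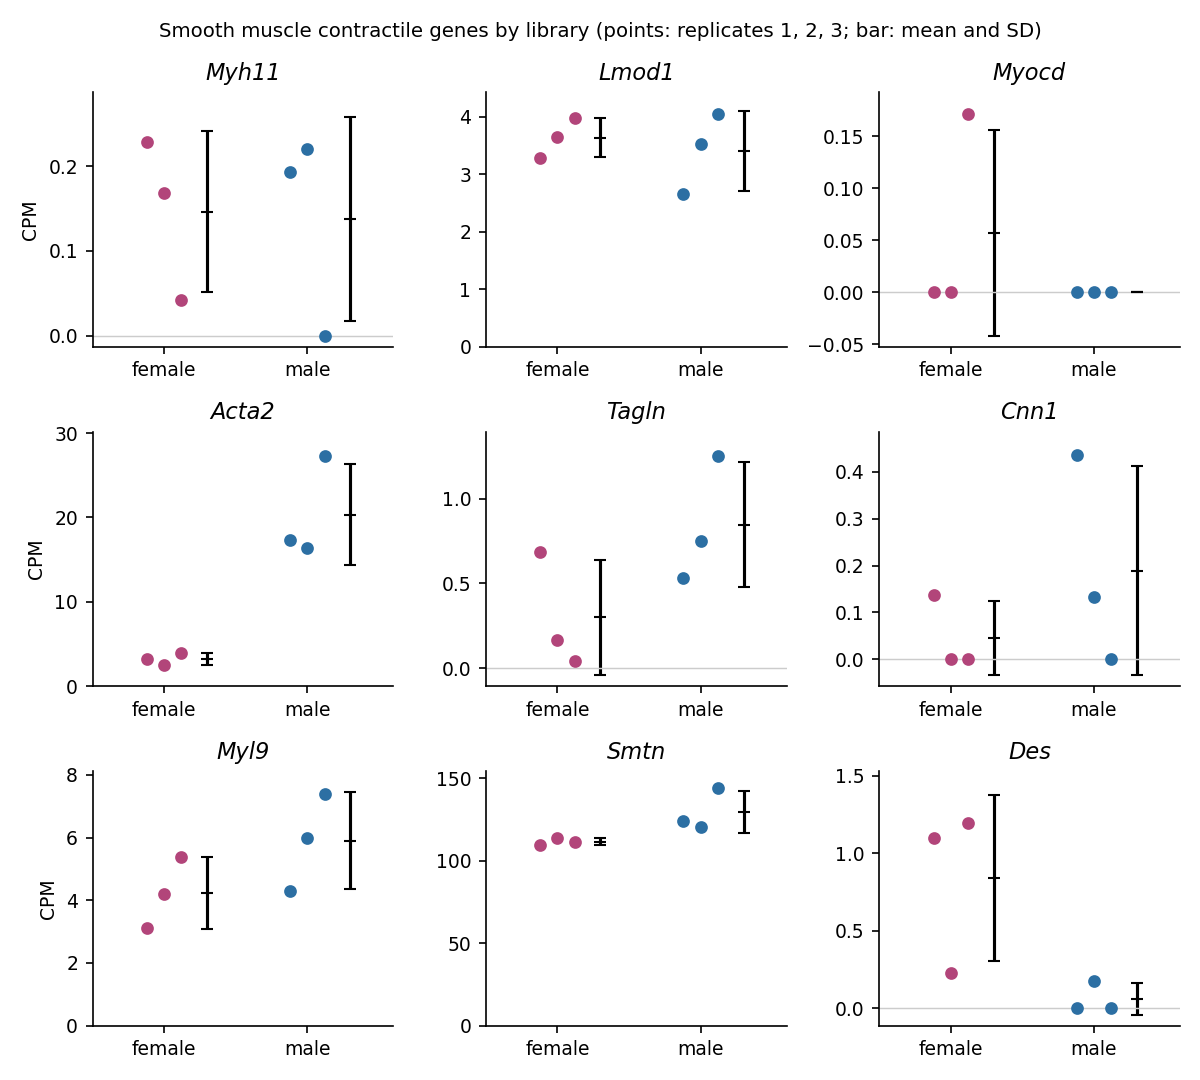
CPM of the 9 contractile genes in each library, 1 panel per gene with its own linear axis, points for replicates 1 to 3 of each sex and a bar for the mean and SD (n = 3). Acta2 shows male libraries at 16.4 to 27.2 CPM and female libraries at 2.47 to 3.97, while Myh11, Myocd and Cnn1 stay under 0.5 CPM.

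Acta2 encodes smooth muscle alpha-actin, the actin of the contractile thin filament (ENSMUSG00000035783, chr19:34241090-34255336, minus strand). Its counts were 71, 44 and 93 in the female libraries and 358, 372 and 479 in the male libraries, or 3.24, 2.47 and 3.97 CPM against 17.3, 16.4 and 27.2 CPM. Every female library lay below every male library, and male replicate 3 was the highest. The log2 fold change of female over male was -2.64 ± 0.26 (SE, edgeR adjusted p = 7.6e-05), and -2.37 without male replicate 3 (edgeR adjusted p = 4.56e-09). In bulk RNA, fewer cells that express Acta2 and less Acta2 RNA per cell cannot be told apart.

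Acta2 was a small part of the actin RNA in these cultures. Of the summed FPKM of 6 actin genes, Acta2 took 0.286%, 0.186% and 0.279% in female and 1.35%, 1.23% and 1.62% in male libraries. This share does not depend on how libraries are scaled to one another, and the sexes did not overlap in it. The non-muscle actins Actb (494 ± 62.8 FPKM in female, 516 ± 86.8 in male) and Actg1 (232 ± 20.8 and 276 ± 33.4) were not called, with log2 fold changes of -0.06 ± 0.15 and -0.25 ± 0.13 (edgeR adjusted p = 0.83 and 0.218). The other muscle actins Actg2, Acta1 and Actc1 averaged under 1 count per library. Of the 50-base words in Acta2 transcripts (GENCODE M21), 0.33% also occur in transcripts of another gene, among them Actg1. The span of Acta2 in GENCODE M21 differs from that in the deposited data, with 2196 exonic bases against a deposited length of 1781. The FPKM of Acta2 and its share of the actins use the deposited length.

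Tagln encodes transgelin (SM22), an actin-bundling protein and an early smooth muscle marker (ENSMUSG00000032085, chr9:45929619-45936058, minus strand). It had 15, 3 and 1 counts in female and 11, 17 and 22 in male libraries, or 0.685, 0.169 and 0.0427 CPM against 0.532, 0.750 and 1.25 CPM. Female replicate 1 lay among the male libraries, and the sexes overlapped. The log2 fold change was -1.46 ± 0.80 and was not called (edgeR adjusted p = 0.269). It ranged from -3.004 without female replicate 1 to -0.93 without female replicate 3, and limma-voom with quality weights called it (-1.87, adjusted p = 0.022).

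Of the exonic bases of Tagln, 62.4% are shared with Gm48529, an antisense gene, and 5.43% with Pcsk7, both on the opposite strand. Gm48529 itself had 7 to 27 counts per library and Pcsk7 474 to 804. Whether the counting used strand is not known, so reads from these stretches may be missing from the Tagln counts, and its level here may be too low. Its relative Tagln2, the transgelin of non-muscle cells, was far above it at 212 ± 9.56 FPKM in female and 153 ± 23.1 in male cultures. Tagln2 was higher in female cultures (0.47 ± 0.13, edgeR adjusted p = 0.0308).

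Cnn1 encodes calponin 1, which binds actin and dampens myosin ATPase activity in smooth muscle (ENSMUSG00000001349, chr9:22099216-22109630, plus strand). It had 3, 0 and 0 counts in female and 9, 3 and 0 in male libraries. No more than 1 library exceeded the floor of 3 counts, and Cnn1 was not tested. The ratio of male to female was 4.14 over the summed counts, with a 95% counting interval of 1.12 to 22.9 (exact binomial), which leaves out the spread between libraries. Without a filter on low counts the edgeR adjusted p was 0.561.

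Both non-muscle calponins were expressed. Cnn2 was lower in female, at 38.8 ± 2.54 FPKM against 66.3 ± 7.40 in male (log2 fold change -0.77 ± 0.12, edgeR adjusted p = 0.0013). Cnn3 stood at 64.1 ± 2.31 and 63.5 ± 4.13 FPKM and was not called (0.01 ± 0.10, edgeR adjusted p = 0.945).

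Smtn encodes smoothelin, a protein that binds actin in contractile smooth muscle and is made in several forms (ENSMUSG00000020439, chr11:3517523-3540612, minus strand). Its counts were 2404, 2024 and 2602 in female and 2562, 2733 and 2530 in male libraries, or 110, 114 and 111 CPM against 124, 121 and 144 CPM. The female libraries lay within a narrow band below all male libraries, with male replicate 3 highest. The difference was small, with a log2 fold change of -0.21 ± 0.11, and was not called (edgeR adjusted p = 0.218). The count per gene does not tell the forms of smoothelin apart, and 16.3% of the exonic bases are shared with Gm11946 on the opposite strand, which had 0 to 18 counts per library.

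Lmod1 encodes leiomodin 1, which nucleates actin filaments in smooth muscle (ENSMUSG00000048096, chr1:135324807-135368065, plus strand). It is counted with the mature markers and was the only one of them measured above 5 counts. Its counts were 72, 65 and 93 in female and 55, 80 and 71 in male libraries, or 3.29, 3.65 and 3.97 CPM against 2.66, 3.53 and 4.04 CPM. The sexes overlapped throughout. The log2 fold change was 0.10 ± 0.25 (edgeR adjusted p = 0.839), and its sign turned without male replicate 1 (-0.06). Of the same family, Tmod3 was the most abundant, at 11.7 ± 0.883 FPKM in female and 13.4 ± 1.497 in male, and the striated muscle genes Lmod2 and Lmod3 averaged under 1 count per library.

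Myh11 encodes the smooth muscle myosin heavy chain (ENSMUSG00000018830, chr16:14194535-14291372, minus strand). It had 5, 3 and 1 counts in female and 4, 5 and 0 in male libraries, 9 counts in each sex. The ratio of female to male was 0.965, with a counting interval of 0.340 to 2.75, and Myh11 was not tested. The non-muscle heavy chain genes were abundant. Myh9 stood at 96.6 ± 0.913 FPKM in female and 100.2 ± 12.1 in male and was not called (-0.05 ± 0.12, edgeR adjusted p = 0.814). Myh10 was higher in female, at 24.8 ± 1.57 against 15.6 ± 2.29 FPKM (0.67 ± 0.13, edgeR adjusted p = 0.0055).

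Myl9 encodes the regulatory light chain whose phosphorylation starts contraction, and non-muscle cells make it too (ENSMUSG00000067818, chr2:156775420-156781658, plus strand). Its counts were 68, 75 and 126 in female and 89, 136 and 130 in male libraries, or 3.11, 4.22 and 5.38 CPM against 4.31, 6.002 and 7.39 CPM. The sexes overlapped, since female replicate 3 lay above male replicate 1. The log2 fold change was -0.47 ± 0.28 and was not called (edgeR adjusted p = 0.299). Its relative Myl12a had 32.7 ± 2.65 FPKM in female and 41.0 ± 10.5 in male, and Myl9 took 7.86% to 11.8% of the summed FPKM of Myl9, Myl12a and Myl12b across the 6 libraries. Myl12b had only 37 to 74 counts per library. Sequence shared between Myl12a and Myl12b was not searched, so whether reads common to both are missing from this sum is not known.

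Des encodes desmin, the intermediate filament protein of muscle (ENSMUSG00000026208, chr1:75360329-75368579, plus strand). It had 24, 4 and 28 counts in female and 0, 4 and 0 in male libraries, or 1.10, 0.225 and 1.196 CPM against 0, 0.177 and 0 CPM. In CPM the sexes did not overlap, as for 35.9% of all genes tested. Female replicate 2 and male replicate 2 had the same 4 counts, so this separation rests on their library totals alone. The filter on low counts left Des out of the test. The ratio of female to male over the summed counts was 13.5, with a counting interval of 4.99 to 51.3. Without the filter the log2 fold change was 3.61 and passed (edgeR adjusted p = 0.00301), as it did with DESeq2 (3.75, adjusted p = 0.0189).

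The direction of Des was opposite to that of Acta2. Leaving out a library lets Des pass the filter in 4 of the 6 cases, each time through its counts in female replicates 1 and 3. It was then called without female replicate 2 (edgeR adjusted p = 0.0398), male replicate 2 (0.0409) or male replicate 3 (0.0229) and not without male replicate 1 (0.11). Since Des is tested there only through libraries of the sex where it is high, these calls cannot serve as further support for a difference. Vim, the vimentin of mesenchymal cells, was the abundant intermediate filament gene, with 269 ± 34.4 FPKM in female and 574 ± 120.4 in male. Of 7 genes of intermediate filaments and their linkers other than Des, 5 were tested, 1 was higher and 3 were lower in female (80% called, against 18.3% of all genes tested). Vim was lower (-1.09 ± 0.17, edgeR adjusted p = 0.00134), and so were Nes (nestin, -1.19 ± 0.11, edgeR adjusted p = 5.48e-05) and the linker gene Plec (-0.81 ± 0.13, edgeR adjusted p = 0.00147). Krt18, a keratin gene, was higher in female, at 7.50 ± 1.40 CPM against 0.504 ± 0.250 in male (3.90 ± 0.36, edgeR adjusted p = 5.06e-05). Its 5 to 13 counts per male library would not alone have passed the filter, so this call cannot serve as further support for a difference. Krt8, a keratin gene of the same list, had 0 to 5 counts per library and was not tested.

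Myocd encodes myocardin, the coactivator that drives the whole set in smooth muscle (ENSMUSG00000020542, chr11:65176561-65269989, minus strand). It had 0 counts in 5 of 6 libraries and 4 counts in female replicate 3. The related coactivator genes, which share its way of binding SRF, were expressed in every library. Mkl1 (now Mrtfa) averaged 43.2 ± 5.51 CPM in female against 48.8 ± 7.31 in male libraries, and Mkl2 (now Mrtfb) 27.1 ± 3.20 against 41.7 ± 13.2. Neither was called (-0.18 ± 0.15 and -0.62 ± 0.22, edgeR adjusted p = 0.481 and 0.0877).

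**Figure D3:**
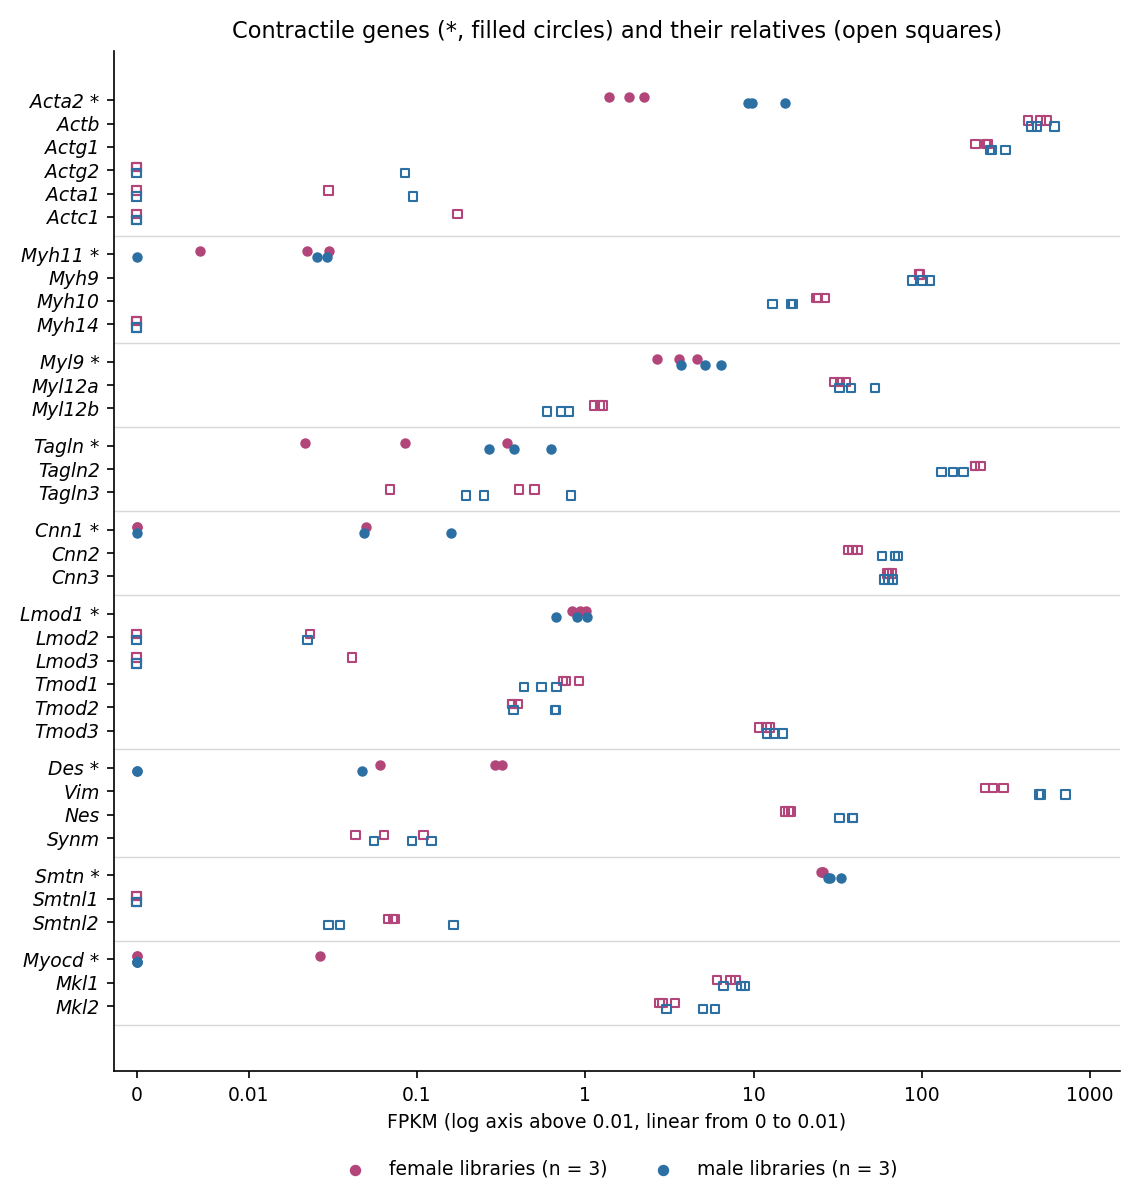
FPKM of each contractile gene (filled circles, marked with an asterisk) and of its relatives (open squares) in each library, on an axis that is logarithmic above 0.01 and linear from 0 to 0.01. The non-muscle genes Actb, Myh9, Tagln2, Cnn3 and Vim sit at about 60 FPKM or more, while Myh11, Cnn1 and Myocd stay under 0.2 FPKM in every library.

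As a whole the set behaved unevenly between the sexes. Of the 9 members, 5 passed the filter on low counts, 1 of these was lower in female, 0 were higher and 4 were not called. Over all genes, 18.3% of the 14932 tested were called, 8.62% as lower and 9.68% as higher in female. The sexes did not overlap for Acta2 and Smtn among the 5 tested members, with the female libraries lower for both. Over all genes tested the sexes did not overlap for 35.9%, with the female libraries lower for 16.7% and higher for 19.2%. With 5 genes tested, these shares do not set the contractile genes apart from other genes.

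The summed level of the 6 members shared with myofibroblasts was 118, 121 and 122 CPM in female and 147, 144 and 180 CPM in male libraries. Of the difference in means, Smtn made up 17.9 CPM and Acta2 17.1 CPM, and the next, Myl9, 1.67 CPM. The mature markers summed to 3.52, 3.82 and 4.19 CPM in female and 2.85, 3.75 and 4.04 CPM in male libraries, with overlap, and Lmod1 gave nearly all of it.

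SRF and its partners were present in both sexes. Srf averaged 34.4 ± 4.23 CPM in female against 42.5 ± 0.656 in male libraries, without overlap, and was not called (-0.31 ± 0.12, edgeR adjusted p = 0.128). Of 18 genes for SRF, its cofactors and modulators, 17 were tested, 3 were higher in female and 0 lower (17.6% called, near the 18.3% of all genes tested), with a median log2 fold change of -0.12 against -0.01 over all genes tested. Those higher were Fhl2, a LIM protein that binds SRF (42.2 ± 2.58 CPM against 10.2 ± 2.37 in male cultures; 2.05 ± 0.18, edgeR adjusted p = 3.42e-05), Klf4, known as a repressor of contractile genes (33.2 ± 2.24 and 20.8 ± 3.01; 0.67 ± 0.14, edgeR adjusted p = 0.00853), and Mef2c (14.5 ± 3.00 and 7.22 ± 2.17; 1.00 ± 0.25, edgeR adjusted p = 0.0204).

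Most genes of the rest of the thin filament and its attachments were not called. Of 33 such genes 28 were tested, 2 were higher and 6 lower in female and 20 were not called (28.6% called, against 18.3% of all genes tested), with a median log2 fold change of -0.19. Lower were Palld (palladin, -0.95 ± 0.10, edgeR adjusted p = 1.37e-04), Cnn2, the tropomyosin gene Tpm4 (-0.63 ± 0.12, edgeR adjusted p = 0.00592), the filamin gene Flna (-0.61 ± 0.14, edgeR adjusted p = 0.0127), the caldesmon gene Cald1 (-0.39 ± 0.11, edgeR adjusted p = 0.0366) and Actn4. Higher were Tagln2 and Synpo2. The summed level of the list was 7148 to 7499 CPM in female and 8392 to 8755 in male libraries.

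Genes of myofibroblasts and of the response to TGF-beta, a growth factor that induces Acta2 in fibroblasts, differed in both directions. Of 27 genes, 26 were tested, 4 were higher and 9 lower in female (50% called, against 18.3% of all genes tested), with a median log2 fold change of -0.28. Among those lower were Ankrd1 (-2.62 ± 0.17, edgeR adjusted p = 5.95e-06), Cdh2 (-1.74 ± 0.11, edgeR adjusted p = 6.28e-06), Ctgf (now Ccn2; -1.18 ± 0.11, edgeR adjusted p = 6.92e-05), Cthrc1, Tgfb3, Tnc, Lox and Thy1. Higher were Postn (4.09 ± 0.19, edgeR adjusted p = 9.26e-07), Col3a1, Tgfb2 and Cyr61 (now Ccn1). Their part in the Acta2 difference was not tested.

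**Figure D4:**
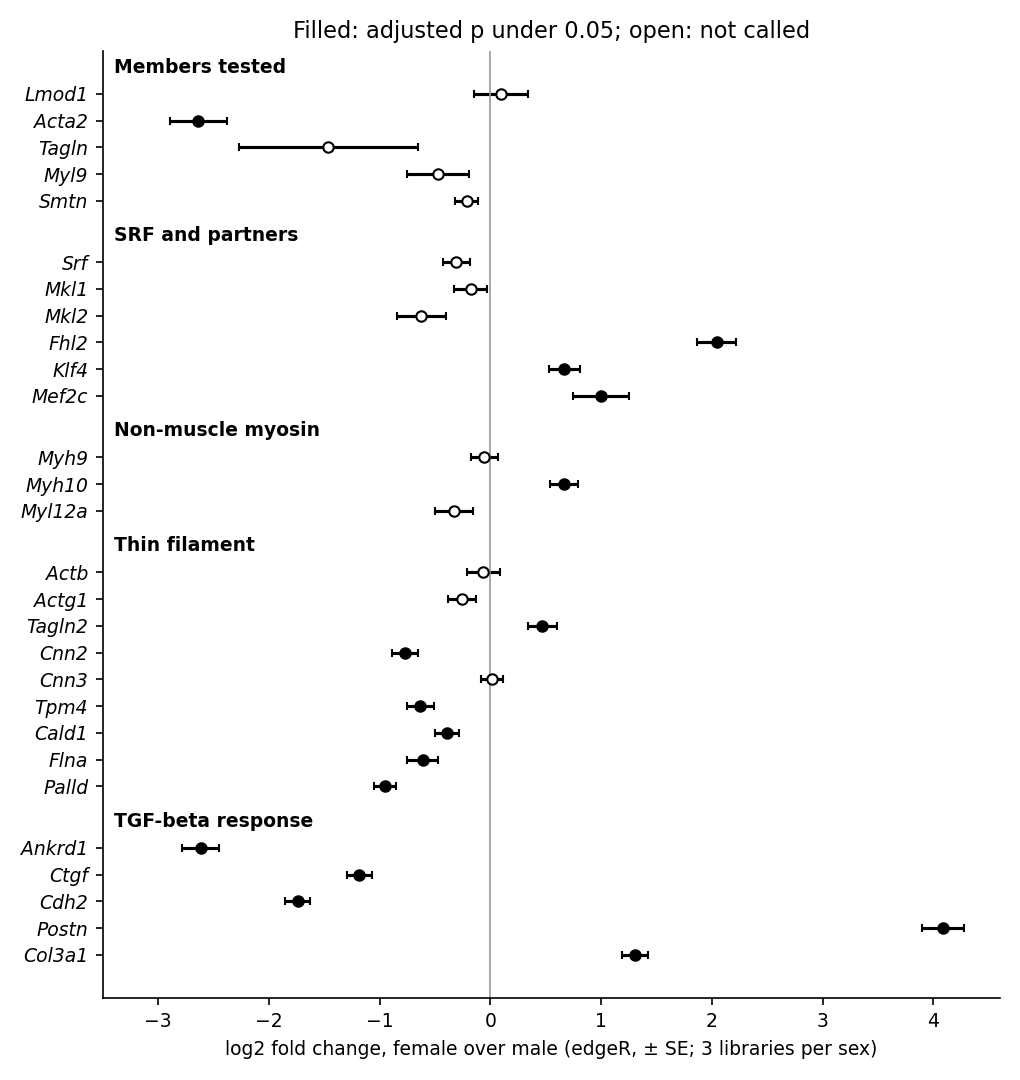
Log2 fold change of female over male (edgeR, ± SE, 3 libraries per sex) of the 5 contractile genes tested and of genes named in the text from the SRF, myosin, thin filament and TGF-beta lists. Filled points passed at an adjusted p under 0.05. Acta2 at -2.64 lies near Ankrd1 at -2.62, while Lmod1, Tagln, Myl9 and Smtn are open.

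Markers of smooth muscle outside the contractile set were mixed. Of 18 genes, 13 were tested, 3 were higher in female and 2 lower (38.5% called, against 18.3% of all genes tested), and 6 were under 1 CPM in all libraries. Kcnmb1, the channel subunit of smooth muscle, and Pln (phospholamban) had 0 counts in all 6 libraries. Itga8 (1.70 ± 0.22, edgeR adjusted p = 4.65e-04), Npnt (1.92 ± 0.20, edgeR adjusted p = 1.29e-04) and Rbpms (1.01 ± 0.11, edgeR adjusted p = 1.13e-04) were higher in female. Itga1, a collagen-binding integrin gene, was lower, from 29.8 ± 7.602 CPM in male to 5.51 ± 0.219 in female (-2.43 ± 0.20, edgeR adjusted p = 2.79e-05), as was Mcam.

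Pericytes and striated muscle also express contractile genes or desmin. Of 11 pericyte markers 4 stayed under 1 CPM in every library, and the summed level was 1743 to 1781 CPM in female and 1716 to 2117 in male libraries. Of the 7 tested, 1 was higher and 2 were lower in female (42.9% called, against 18.3% of all genes tested). Rgs5 was higher in female (1312 ± 38.0 CPM against 969.9 ± 120.5; 0.44 ± 0.12, edgeR adjusted p = 0.0314). Pdgfrb (352 ± 21.6 against 831 ± 103; -1.24 ± 0.13, edgeR adjusted p = 9.19e-05) and Anpep (24.7 ± 2.40 against 64.1 ± 2.56; -1.37 ± 0.12, edgeR adjusted p = 3.06e-05) were lower. Of 30 cardiac and skeletal muscle genes 25 stayed under 1 CPM in every library and 10, among them Myh7, Myl7 and Myog, had 0 counts in all 6. Their summed level was 9.39 to 12.2 CPM in female and 9.45 to 12.2 in male libraries. Of the 5 tested, 3 troponin genes were called (60%, against 18.3% of all genes tested), in both directions. Tnni1 (0.253 ± 0.0583 against 3.52 ± 1.30 CPM in male, -3.76 ± 0.45, edgeR adjusted p = 2.82e-04) and Tnni3 (0.370 ± 0.0696 against 1.40 ± 0.296, -1.91 ± 0.46, edgeR adjusted p = 0.0167) were lower in female. Both had under 10 counts in each female library and passed the filter on low counts only through the male libraries. Their calls therefore cannot serve as further support for a difference. Tnnt3 was higher (6.27 ± 1.34 against 1.48 ± 0.406; 2.07 ± 0.29, edgeR adjusted p = 7.48e-04). The part of these markers in the Acta2 and Des differences was not tested.

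The genes whose pattern over the 6 libraries was most like that of each tested member were taken by the root mean square difference of centred log2 CPM, among 10787 genes with a mean of at least 100 counts. Such nearest genes are picked from many and describe these libraries only. For Acta2 they were Prss23 (difference 0.108; 2.26 ± 0.532 CPM in female, 14.5 ± 2.47 in male), Prl2c2 (0.193; 197 ± 27.1 and 1054 ± 226.7) and Fam20a (0.195; 2.57 ± 0.279 and 15.2 ± 1.42), while Acta2 itself spanned 3.45 on the log2 scale. Prl2c2 belongs to a family of close copies, so its counts are uncertain. Smtn was nearest to Cops7a (0.018), Myl9 to Snupn (0.11) and Lmod1 to Trappc3 (0.042), each over a much smaller span of 0.391, 1.25 and 0.599. Tagln had no close match, with 0.656 to the nearest gene. It had only 1 to 22 counts per library, so counting error alone can keep a match to well-counted genes from being close.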

How the data were processed

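Poly-A RNA-seq of 3 female and 3 male samples was grouped by the sex in the titles. The table holds raw counts, deposited by the authors as whole numbers per gene and library, and other values such as gene lengths in bases. The submitters' processing notes name HISAT2 2.0.5 and featureCounts 1.5. Neither the genome build nor the strand setting is given in the sources used here. GENCODE M21 (GRCm38) held 99.8% of the identifiers, and 98.3% of those had the same span.

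The test was edgeR 4.0.16 (R 4.3.3), quasi-likelihood with robust dispersions, TMM scaling and filterByExpr (minimum count 10). P-values were adjusted by Benjamini-Hochberg over 14932 genes, and called genes had an adjusted p under 0.05. The test gives no SE of its own. The SE given here is the absolute log2 fold change divided by the square root of the F statistic. CPM and FPKM were computed from the counts and the deposited lengths. Libraries held 17410996 to 22993574 counts, and those of a sex differed beyond sampling noise (chi-square per degree of freedom 7.43 to 70.8). Intervals and floors cover counting error only.

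The members and lists were chosen with earlier results of these data known. Named genes were all members, up to 4 tested genes with the smallest p and 2 more of high level per list, relatives of the members, overlapping genes, and the 3 nearest in pattern per member. Srf, Mkl1, other called genes and genes at 0 were chosen after their values were seen. Not every gene that this rule would name is given, and 1 gene list is not reported here. Of the list entries, 205 were matched by symbol and 4 by gene ID. Tried as alternatives were scaling by RLE or upper quartile, DESeq2 1.42.0, limma-voom with quality weights (limma 3.58.1), no filter or a mean of 50 counts or more, a replicate block, leaving out each library, and a threshold of 0.01.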

Additional observations from a re-analysis of the deposited data

How the results depend on the processing

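Acta2 kept its direction and its call under all 14 alternatives, with log2 fold changes of -2.82 to -2.37 and an adjusted p of at most 7.05e-04. No alternative called Lmod1, Myl9 or Smtn. Leaving out 1 library gave log2 fold changes of -0.0572 to 0.23 for Lmod1, which turned its sign without male replicate 1 only. Tagln was called by limma-voom with quality weights only, where 2 contractile genes were lower in female in place of 1. The number of contractile genes higher in female was 0, and 1 (Des) without a filter or with DESeq2, where fewer counts are needed to be tested, and 0 to 1 with a library left out. With a library left out, Des was tested only through its counts in female replicates 1 and 3.

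Over all genes 1446 were higher and 1287 lower in the main test. Under limma-voom with quality weights these numbers were 3305 and 3289, and 35 higher and 60 lower among the genes of the other lists (22 and 33 in the main test). An adjusted p under 0.01 gave 900 and 835. Leaving out each library gave 967 to 2508 higher and 903 to 2543 lower, the highest values being without male replicate 3, and 15 to 31 higher and 26 to 48 lower in the lists. The cause was not tested.

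The replicate numbers were not taken to pair the samples: deviations of same-numbered libraries correlated at 0.177, 0.00695 and 0.135. With the replicate number as a block, 1619 genes were higher and 1449 lower, 1 contractile gene was lower and 0 higher, and the log2 fold change of Acta2 was -2.64 (adjusted p = 1.59e-06). The best match was the same number for female replicates 1 and 3, and male replicate 3 for female replicate 2. Depth limits Myh11, Myocd and Cnn1, for which most libraries lay at or under a few counts and a difference between the sexes was not detectable.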
